A study of Mus musculus with 12 samples.

Results

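Interferon-stimulated genes were followed by symbol through single-cell libraries of mouse paw epidermis. Of the 37 genes chosen, 35 were among the 32285 features counted, and Mx1 and Mx2 were not analysed here. The mice were wild-type C57BL/6J animals of both sexes that received either a regular diet (RD, 11% fat) or a high-fat diet (HFD, 42% fat) for 10 weeks from an age of 6 to 8 weeks, and were 16 to 18 weeks old at sampling. Each sex had 3 RD and 3 HFD mice, 12 mice in 4 groups with 1 library each, no mouse carried a transgene or received a drug, and HFD feeding serves the study as a model of painful diabetic neuropathy, with diet the only difference the labels give within a sex. The question for these genes was in which epidermal cells they are expressed, and whether HFD changed them in Langerhans cells, T cells or keratinocytes.

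Type I interferons bind the receptor chains IFNAR1 and IFNAR2, whose kinases JAK1 and TYK2 activate STAT proteins. With IRF9 these form a complex that binds a promoter element with repeated GAAA letters and switches on interferon-stimulated genes. The products block viral entry (IFITM proteins), hold budding virus at the membrane (tetherin, encoded by Bst2), sense RNA (RIG-I from Ddx58, MDA5 from Ifih1) or tag proteins (ISG15, removed by USP18). Langerhans cells are the antigen-presenting cells of the epidermis, and keratinocytes move from a dividing basal layer through spinous stages to cornified layers.

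The promoters of 4 members on which the results turn are shown because they carry the letters GAAANNGAAA, the core of the element described above. On the other strand the same core reads TTTCNNTTTC. Each window runs from 250 bases before to 50 bases after the gene start, 5′ to 3′ along the gene, from RefSeq on GRCm38.p6. Capitals mark the letters of a core, and overlapping cores share letters. Ifitm2 (chr7:140955912-140956211, minus strand) had 1 core 46 bases before its start, and Ifitm3 (chr7:141010695-141010994, minus strand) had 2, beginning 2 and 19 bases after its start. Isg15 (chr4:156200769-156201068, minus strand) had 3 overlapping cores 78, 72 and 66 bases before its start, and Bst2 (chr8:71537423-71537722, minus strand) had 2 at 130 and 124 bases before.
Ifitm2: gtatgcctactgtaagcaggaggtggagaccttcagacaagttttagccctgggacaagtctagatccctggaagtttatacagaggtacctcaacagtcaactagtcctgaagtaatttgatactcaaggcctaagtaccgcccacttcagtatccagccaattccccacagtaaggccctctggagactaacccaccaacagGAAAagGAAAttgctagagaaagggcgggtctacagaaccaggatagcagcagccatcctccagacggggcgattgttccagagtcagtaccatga
Ifitm3: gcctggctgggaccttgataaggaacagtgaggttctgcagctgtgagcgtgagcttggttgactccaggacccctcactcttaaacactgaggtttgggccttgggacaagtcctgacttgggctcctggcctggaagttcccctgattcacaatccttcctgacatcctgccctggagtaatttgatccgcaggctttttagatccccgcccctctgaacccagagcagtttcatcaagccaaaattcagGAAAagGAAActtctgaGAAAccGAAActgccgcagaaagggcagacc
Isg15: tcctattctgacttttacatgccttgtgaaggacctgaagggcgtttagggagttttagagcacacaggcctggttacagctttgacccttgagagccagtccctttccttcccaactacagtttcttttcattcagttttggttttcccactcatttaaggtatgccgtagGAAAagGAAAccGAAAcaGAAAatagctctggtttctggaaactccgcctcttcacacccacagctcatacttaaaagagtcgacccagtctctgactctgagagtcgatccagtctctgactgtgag
Bst2: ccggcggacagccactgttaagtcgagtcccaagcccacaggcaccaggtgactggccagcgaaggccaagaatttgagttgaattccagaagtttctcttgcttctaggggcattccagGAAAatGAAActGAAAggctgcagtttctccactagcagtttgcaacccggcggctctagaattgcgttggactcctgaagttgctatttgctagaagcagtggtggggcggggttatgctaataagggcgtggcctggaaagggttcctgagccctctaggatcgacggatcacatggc
RefSeq windows were matched for 28 of the 37 members. The core stood in at least 1 window of 17 of these 28 (60.7%), against 1079 of 27025 genes with a window (3.99%). Irf7, Irf1, Irf9 and Ifi35 were among the matched members without it. A match describes letters in a window and says nothing on binding.

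The 12 libraries held 140392 barcodes, of which 126375 passed the filters on genes and on mitochondrial UMIs (unique molecular identifiers, 1 per captured transcript), and 134449247 to 194673581 UMIs each. Any pair of libraries shared 15 to 70 barcodes. Males and females were clustered apart because their files were counted with Cell Ranger 6.1.0 and 7.2.0, so sex and counting software cannot be told apart. The members were left out of the genes used for clustering. Levels are UMIs of a gene per 1000000 UMIs (CPM) summed over the cells of a class in a mouse, so a level in a larger class rests on more UMIs.

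Langerhans cell-like (LC-like) clusters held 1345 cells in males and 2147 in females, and T cell-like clusters 223 and 339. Cd207, which encodes langerin, had a median of 2632 CPM in male and 3804 CPM in female LC-like cells and 0 in T cell-like cells. The T cell receptor component Cd3g had medians of 1278 and 636 CPM in T cell-like cells, against 0 and 0.79 in LC-like cells. All other cells, 60579 and 61742, are treated as keratinocytes. By their markers clusters of these were named basal, proliferating, migratory, suprabasal or spinous, or terminally differentiated, while 13777 male and 4865 female cells among them stayed unnamed. The female proliferating class includes a cluster of 419 cells with Lhx2 and Adgrl3, which also led the migratory cluster, among its leading genes. The suprabasal or spinous class gathers different clusters in the 2 sexes.

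Both immune classes also carried keratin UMIs. Krt14, a basal keratin, had medians of 2389 and 1429 CPM in male and female LC-like cells and 4741 and 2647 CPM in T cell-like cells. Subclusters with Krt1, Krt2, Krt5, Krt10, Krt14 or Krt15 among their 10 leading genes, called keratin-led here, made up 9.23% to 24.4% of the LC-like cells of a male and 11.9% to 21.2% of those of a female. Without them the Krt14 medians in LC-like cells were 142 and 53.6 CPM. In T cell-like cells they were 299 and 94.6 CPM. A male T cell-like subcluster of 131 cells with Krt83 among its leading genes was kept. The results in immune cells that moved with these keratins are given with and without the keratin-led subclusters, an alternative added after seeing the data.

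The members divided between epidermal cell classes (plot of member levels by class). Bst2, Isg15, Ifih1, Usp18 and Stat2 had higher medians in LC-like cells than in any keratinocyte class. They encode antiviral effectors, a sensor, the protease that removes ISG15 and a transcription factor subunit. Ifitm3, Ifitm2, Irf1 and Ifi27 instead had higher medians in basal keratinocytes than in LC-like cells. LC-like cells had the highest median for 17 of the 35 members in each sex, while 3 members in males and 4 in females had no highest class because all medians were 0. Among members with at least 50 UMIs over all classes it was 12 of 27 in males (18.5% of all genes with as many UMIs) and 12 of 25 in females (20.1%). For 2 of these 27, Oasl1 and Usp18, all males stood higher in LC-like cells than any male in another class, beside 3.8% of all genes, and for 2 of these 25, Ifih1 and Oas1a, all females did, beside 6.17%. This filter counts UMIs over all classes, so a member near 0 elsewhere passed it largely through LC-like cells. Oas1a did so, at a female median of 1.95 CPM in LC-like cells and at most 0.0357 CPM in any other class. No test was run between classes, since they are clusters of the same cells.

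**Figure D1:**
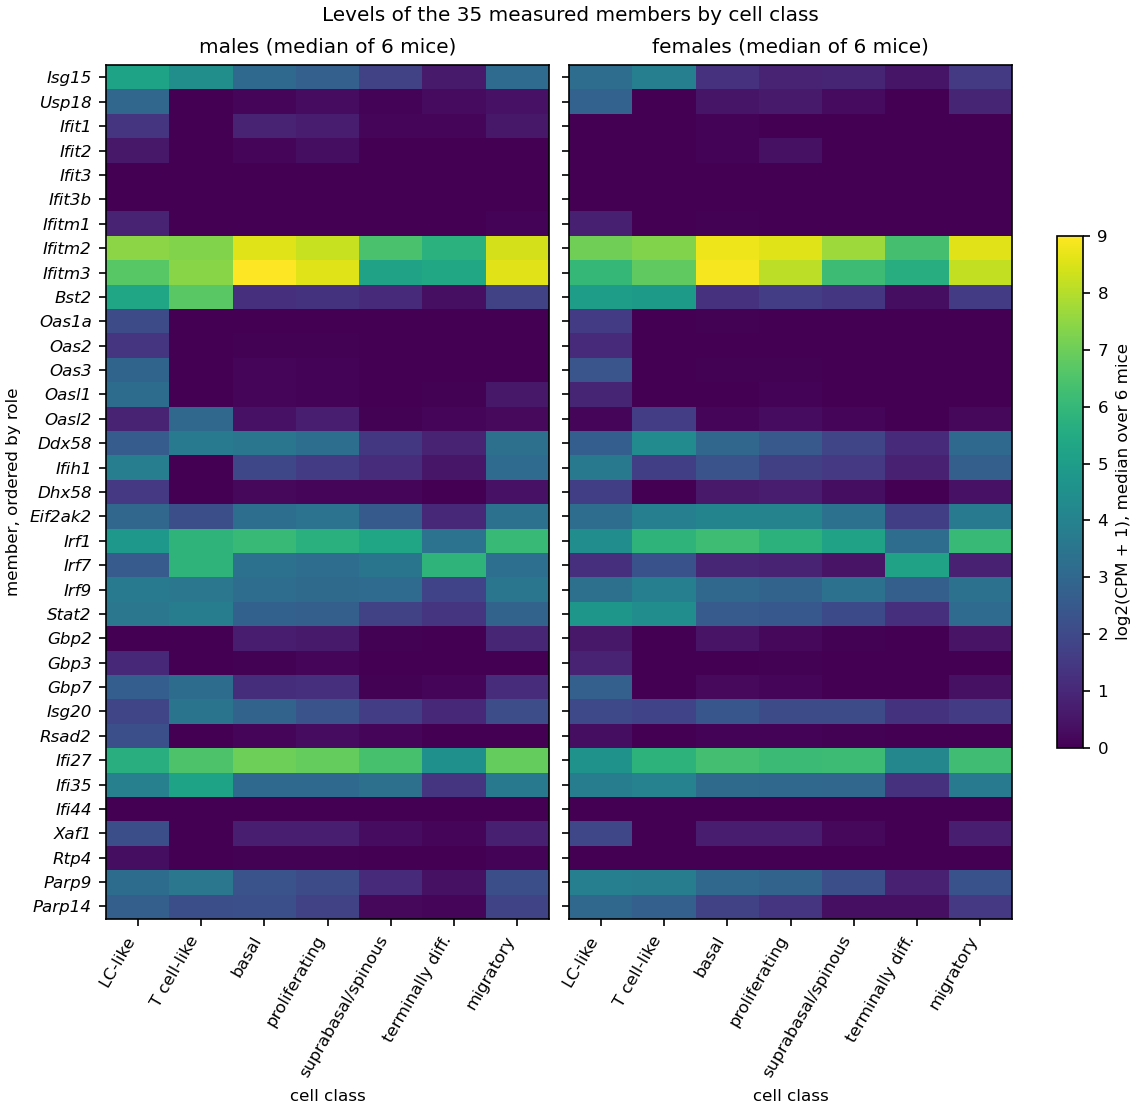
Colour shows log2(CPM + 1) of the median over the 6 mice of a sex for each of the 35 measured members (vertical axis) in each cell class (horizontal axis), males on the left and females on the right. Ifitm2 and Ifitm3 are brightest in basal keratinocytes, Bst2 and Stat2 are brighter in the immune classes than in any keratinocyte class, and Irf7 is bright in terminally differentiated cells.

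The range of the 6 males in LC-like cells lay above that in basal keratinocytes for 5 of the 14 members compared, which were Bst2, Isg15, Ifih1, Stat2 and Ifi35. Over all genes compared this share was 27.2%. Usp18 and Oasl1 were not among the 14, being below the filter on UMIs for this pair of classes in males. In females the count was 9 of 17 members, the same 5 with Gbp7, Usp18, Parp14 and Parp9, against 28.8% of genes. The filter averages both classes, so members low in basal cells passed it through their LC-like levels and could not come out lower. In males these were Bst2 and Ifih1, at basal medians of 1.39 and 2.88 CPM. In females they were Gbp7, Usp18, Bst2, Isg15 and Parp14, at basal medians of 0.181, 0.410, 1.42, 1.43 and 2.36 CPM. The counts of higher members therefore rest in part on the filter. All genes were filtered alike. Lower in LC-like cells than in basal cells were 4 members in males (Ifitm2, Ifitm3, Irf1, Ifi27; 21.6% of genes) and 5 in females (the same with Eif2ak2; 32.8% of genes). Without the keratin-led subclusters 4 of 9 members were higher in males (32.3% of genes) and 7 of 14 in females (31.9%), and 4 and 5 were lower (28% and 36%).

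Among the membrane proteins, Bst2 stood at 31.1, 38.1 and 73.4 CPM (lowest, median and highest male) in LC-like cells and 0.942, 1.39 and 1.95 CPM in basal cells. Female LC-like cells had 22.6, 32.2 and 53.5 CPM of Bst2 and basal cells 1.09, 1.42 and 1.79 CPM. All mice had more Bst2 in LC-like cells than any mouse had in basal cells. Ifitm3 ran the other way, with basal levels of 478, 516 and 561 CPM in males and 435, 471 and 512 CPM in females. In LC-like cells Ifitm3 stood at 31.2, 101 and 107 CPM in males and 38.4, 62.9 and 83.3 CPM in females. Its level in immune cells moved with the keratins: without the keratin-led subclusters the LC-like medians of Ifitm3 were 11.0 and 2.95 CPM and the T cell-like medians 0 and 4.22 CPM.

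Ifitm2, encoded with Ifitm3 in a cluster on chromosome 7, kept more of its LC-like level without the keratin-led subclusters than Ifitm3 did. Its medians were 171 CPM in males and 132 CPM in females, and 152 and 76.9 CPM without the keratin-led subclusters. Bst2 and Isg15 stood higher once these were left out, Bst2 at 66.1 and 41.3 CPM and Isg15 at 57.6 and 11.4 CPM. Ifi27, a membrane protein of mitochondria, and Irf1, a transcription factor that interferon gamma also induces, stood lower, Ifi27 at 13.9 and 9.10 CPM and Irf1 at 13.5 and 11.8 CPM.

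Of the ubiquitin-like pair, Isg15 in LC-like cells had 21.9, 36.0 and 70.4 CPM in males and 6.48, 8.30 and 12.6 CPM in females, against basal medians of 7.43 and 1.43 CPM. Usp18, the protease that removes ISG15, had medians of 6.84 and 6.04 CPM in LC-like cells and 0.132 and 0.397 CPM over all keratinocytes. Stat2, a subunit of the transcription factor complex, had medians of 10.9 and 25.9 CPM in LC-like cells and 5.92 and 5.03 CPM in basal cells. Ifih1, the sensor of long double-stranded RNA, had 13.5 and 11.3 CPM in LC-like cells. The sensor of short RNA ends, Ddx58, had medians of 5.18 and 5.46 CPM there and 10.4 and 6.86 CPM in basal cells. The 2 RNA sensors thus had their higher medians in different classes, Ifih1 in LC-like and Ddx58 in basal cells, and for Ddx58 the ranges overlapped in both sexes. T cell-like cells had the highest median of Ddx58, 12.2 CPM in males and 19.3 CPM in females.

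Oas3 and Oasl1, of the oligoadenylate synthetase family, reached medians of 6.47 and 7.98 CPM in male LC-like cells and 4.16 and 0.920 CPM in female LC-like cells. Over all keratinocytes their medians were at or below 0.0712 CPM in both sexes. Without the keratin-led subclusters the male and female LC-like medians were 8.30 and 8.20 CPM for Usp18, 15.9 and 32.5 CPM for Stat2 and 20.6 and 14.0 CPM for Ifih1. They were 5.95 and 4.70 CPM for Ddx58, 9.76 and 5.08 CPM for Oas3 and 11.3 and 1.34 CPM for Oasl1, all above the values over all LC-like cells except that of Ddx58 in females. The IFIT proteins, which bind viral RNA, were near the detection limit. Ifit1 had 315 UMIs in the keratinocytes of the 6 males and 36 in those of the 6 females. Ifit3 had 0 and 1 UMIs and its near-identical copy Ifit3b 1 and 1, values that are uncertain because reads can be split between such copies, and a count of 0 allows up to 3 UMIs. Ifi44, strongly induced in interferon responses, had 4 and 6 UMIs.

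Most members were lower with keratinocyte differentiation. Suprabasal or spinous cells lay below basal cells, with no overlap of mice, for 15 of 19 members in males (52.6% of all genes) and 11 of 19 in females (46.6%). The filter on UMIs averages both classes, so some members low in the later stage passed it through basal levels and could not lie higher. In males these included Gbp7, Parp14, Ifit1 and Xaf1 (medians of 0.030 to 0.236 CPM) and in females Usp18 and Xaf1 (0.196 and 0.145 CPM). Terminally differentiated cells lay below basal cells for 15 of 16 members in males (73.5% of all genes) and 11 of 13 in females (75.5%). Most genes lay lower at this stage, the members among them. Ifitm3 had medians of 516 and 471 CPM in male and female basal cells and 39.6 and 48.1 CPM in terminally differentiated cells. Ifitm2 had 373 and 435 CPM in basal cells, and 52.5 and 80.7 CPM in terminally differentiated cells. Ifi27 had 129 and 78.1 CPM in basal cells and 21.7 and 17.0 CPM at the last stage. The 35 members summed to 1053 to 1236 CPM in basal cells of males and 1068 to 1187 CPM in females, and to 145 to 291 and 135 to 232 CPM in terminally differentiated cells. In basal cells Ifitm2 and Ifitm3 made up most of these sums.

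Irf7, the transcription factor that amplifies type I interferon production, was the single member higher in terminally differentiated than in basal cells in both sexes (14.3% of all genes in males and 13% in females). In females, at a basal median of 0.953 CPM, it passed the filter for this pair through its terminally differentiated level and could not lie lower. In terminally differentiated cells Irf7 had 44.5, 47.7 and 59.6 CPM in male RD mice and 54.7, 78.3 and 73.6 CPM in male HFD mice. Female mice had 38.4, 43.7 and 31.5 CPM on RD and 23.6, 40.7 and 28.5 CPM on HFD. In the other named keratinocyte stages the medians of Irf7 were 8.28 to 10.4 CPM in males and 0.396 to 0.953 CPM in females, so the last stage stood above all others in both sexes (plot of Irf7 by class). Male LC-like cells had a median of 4.93 CPM and female ones 1.39 CPM of Irf7. Irf7 (chromosome 7, 141262706 to 141266481, minus strand, GRCm38) overlaps Phrf1, which lies on the other strand.

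**Figure D2:**
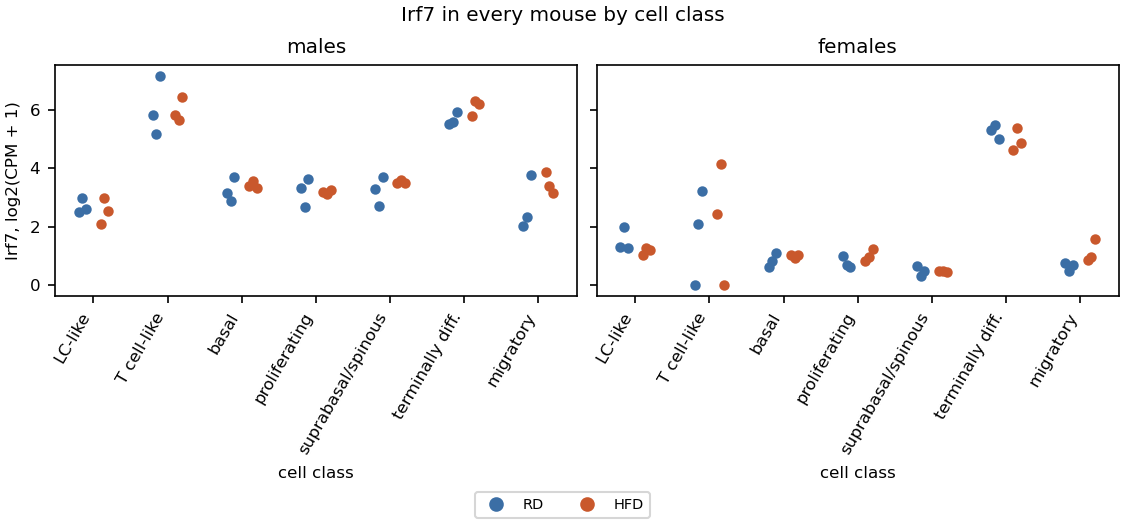
Irf7 as log2(CPM + 1) in each cell class, 1 point per mouse, RD in blue and HFD in orange, males on the left and females on the right. Terminally differentiated keratinocytes stand at 31.5 CPM or more in all RD mice and at 23.6 CPM or more in all HFD mice, above the other keratinocyte stages, and male T cell-like cells are as high.

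Diet comparisons were made within each sex on UMIs summed per mouse with edgeR's quasi-likelihood test, with Benjamini-Hochberg adjustment over all genes and a threshold of 0.05. The p-values measure the spread between 3 mice per group, and in sums over a class fewer expressing cells and less RNA per cell cannot be told apart. In LC-like cells no member passed among 13 tested in males, where 0% of 8219 genes did, and among 17 tested in females, where 0.057% of 10529 genes did. At an unadjusted p under 0.05 there was 1 such member in males (5.62% of all genes) and there were 3 in females (8.83%), and DESeq2 called 0 in both.

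Ifitm2 restricts virus entry at endosomal membranes and had the highest mean level of the members in LC-like cells. Over all LC-like cells it stood at 143, 164 and 72.4 CPM in male RD mice and 179, 216 and 177 CPM in male HFD mice. Female RD mice had 81.6, 139 and 116 CPM and female HFD mice 208, 156 and 126 CPM. All male HFD mice lay above all male RD mice, as for 6.82% of all genes, while in females the ranges overlapped. The log2 fold change of Ifitm2 was 0.54 (SE 0.24, edgeR adjusted p = 0.863) in males and 0.54 (SE 0.20, edgeR adjusted p = 0.463) in females.

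Without the keratin-led subclusters the separation was wider. Ifitm2 then had 97.6, 129 and 64.0 CPM in male RD mice and 189.9, 221 and 176 CPM in male HFD mice. In female RD mice it had 45.8, 41.4 and 72.1 CPM and in female HFD mice 158, 117 and 81.7 CPM. In both sexes every HFD mouse stood above every RD mouse. The log2 fold change was 0.96 (SE 0.19, edgeR adjusted p = 0.0641) in males, which missed the threshold, and 1.12 (SE 0.21, edgeR adjusted p = 0.0173) in females, which passed it. In these fits 0.137% of 5831 genes were called in males and 1.07% of 9190 in females. The difference between the sexes was 0.19 (SE 0.33, edgeR adjusted p = 0.946).

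The call on Ifitm2 without the keratin-led subclusters depended on single mice. Leaving out 1 mouse at a time gave edgeR adjusted p-values of 0.0159 to 0.259 in males, below the threshold only without RD replicate 2. In females they were 0.00947 to 0.0992, above the threshold without RD replicate 1 (0.0992) and without RD replicate 2 (0.0752). DESeq2 gave adjusted p-values of 0.00859 in males and 0.000546 in females. A Wilcoxon test over single cells of all LC-like cells, in which cells of 1 mouse count as independent so that its p-values are too small, called 1 of 7 members in males (1.35% of all genes) and 1 of 8 in females (1.96%), Ifitm2 in both, at a log2 fold change of at least 0.25. Without that limit on the fold change 2 and 4 members had an adjusted p under 0.05. Of 15 alternative settings, Ifitm2 in female LC-like cells passed in 3: no filter on low counts, highest doublet scores removed, and no keratin-led subclusters. In males it passed in 0 of 16.

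**Figure D3:**
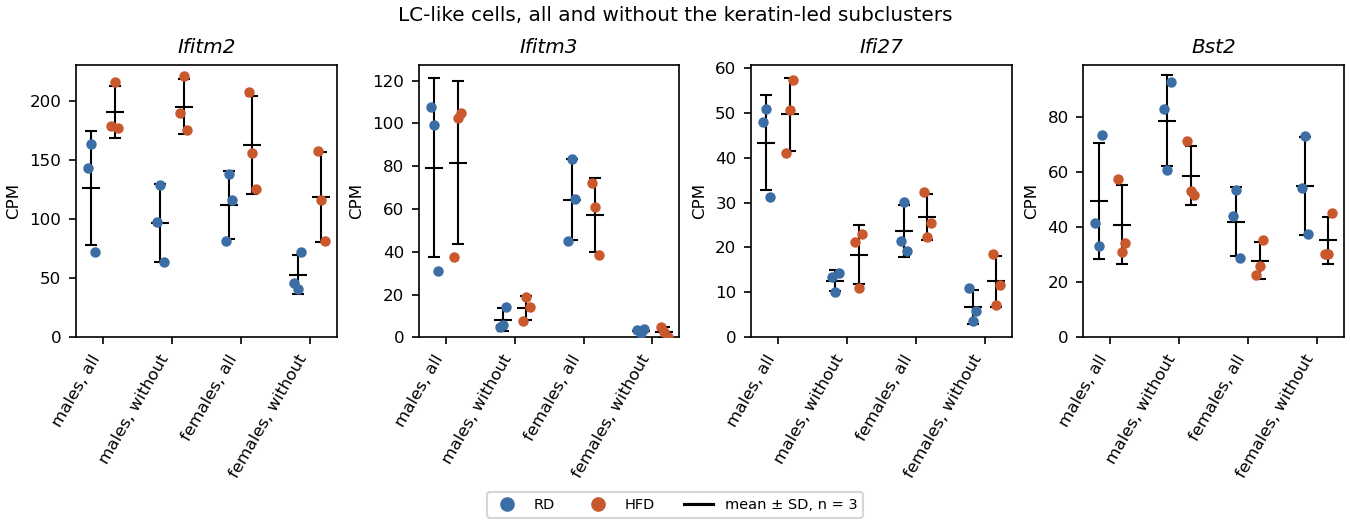
CPM of Ifitm2, Ifitm3, Ifi27 and Bst2 in LC-like cells of each sex, over all cells and without the keratin-led subclusters, 1 point per mouse (RD blue, HFD orange) with mean ± SD of 3 mice. Without the keratin-led subclusters the Ifitm2 points of HFD mice lie at 176 to 221 CPM in males and 81.7 to 158 CPM in females, above all RD points of the same sex.

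Ranges of the 3 HFD and 3 RD mice lay apart for few other members of LC-like cells without the keratin-led subclusters. In males 1 of 11 members was higher under HFD (Ifitm2; 7.25% of all genes were higher and 6.02% lower). In females 3 of 16 were higher and 1 was lower, against 9.95% and 8.02% of all genes. Higher were Ifitm2, as given above, Ddx58 (log2 fold change 1.31, SE 0.46, edgeR adjusted p = 0.220) and Ifi35 (0.42, SE 0.22, edgeR adjusted p = 0.456). Usp18 was lower (log2 fold change -0.91, SE 0.33, edgeR adjusted p = 0.237). The shares of all genes are given beside the counts, with no test over the list.

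Bst2 and Isg15, higher in LC-like cells than in any keratinocyte class, did not pass the threshold. Over all LC-like cells Bst2 had 44.1, 53.5 and 28.9 CPM in female RD mice and 22.6, 25.8 and 35.4 CPM in female HFD mice. Its log2 fold change in females was -0.60 (SE 0.23, edgeR adjusted p = 0.496), and without the keratin-led subclusters -0.64 (SE 0.22, edgeR adjusted p = 0.201). Of 15 settings 1 was past the threshold for Bst2 in females, the fit without a filter on low counts (edgeR adjusted p = 0.0191). Male mice had 41.7, 33.4 and 73.4 CPM of Bst2 on RD and 57.5, 31.1 and 34.5 CPM on HFD, and its groups overlapped in both sexes. Isg15 in male LC-like cells had 28.7, 21.9 and 70.4 CPM on RD and 67.5, 33.4 and 38.6 CPM on HFD. In females Isg15 had 10.6, 7.33 and 8.90 CPM on RD and 7.70, 12.6 and 6.48 CPM on HFD, and in each sex the groups overlapped.

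Ifitm3 in LC-like cells had 107, 99.2 and 31.2 CPM in male RD and 37.6, 103 and 105 CPM in male HFD mice. In females it had 45.1, 83.3 and 64.8 CPM on RD and 72.1, 61.1 and 38.4 CPM on HFD. Ifi27 there had 48.0, 50.7 and 31.2 CPM in male RD and 40.9, 50.5 and 57.3 CPM in male HFD mice. No group of these stood apart from the other. Female levels of Ifi27 were 21.5, 30.2 and 19.2 CPM on RD and 32.3, 22.3 and 25.5 CPM on HFD. Irf1 had 25.0, 29.2 and 19.1 CPM in male RD and 19.9, 34.2 and 33.8 CPM in male HFD mice. In females Irf1 had 12.02, 27.2 and 20.6 CPM on RD and 19.5, 28.6 and 17.7 CPM on HFD. Ifi27 and Irf1 levels overlapped between the diets in both sexes. Stat2 had 12.5, 9.60 and 10.1 CPM in males on RD, 13.3, 11.7 and 9.66 CPM in males on HFD, 28.4, 21.1 and 29.5 CPM in females on RD and 25.7, 26.2 and 21.2 CPM in females on HFD, again with overlap.

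Over all LC-like cells the 35 members summed to 517, 504 and 479.8 CPM in male RD mice and 555, 595 and 579 CPM in male HFD mice. Female sums were 354, 458 and 383 CPM on RD and 485, 431 and 375 CPM on HFD. Ifitm2 alone made up most of the difference between the diets in the male sums. The median log2 fold change of the members tested was 0.09 in males (9 of 13 above 0) and -0.13 in females (6 of 17 above 0), beside medians of 0.0058 and 0.00074 over all genes tested.

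T cell-like cells held 23 to 65 cells per male and 32 to 89 per female, and 80582 to 457353 UMIs per mouse, so that few members could be tested. None passed among 3 in males (1.46% of 1373 genes did) or among 4 in females (0.0225% of 4440 genes did) with edgeR, 0 had an unadjusted p under 0.05 (12.7% and 6.6% of all genes did), and DESeq2 called 0. Without the keratin-led subclusters 0 members could be tested in males and 1 in females, which did not pass. Ifitm2 had 147, 195 and 156 CPM in male RD and 150.3, 323 and 160.0 CPM in male HFD mice. In females it had 116, 195 and 153 CPM on RD and 129, 230.2 and 158 CPM on HFD. The diets overlapped in both sexes. Ifitm3, at medians of 169 and 111 CPM over all T cell-like cells, moved with the keratins as given above. It had 217, 188 and 144 CPM in males on RD, 75.1, 149 and 331 CPM in males on HFD, 7.26, 146 and 100.1 CPM in females on RD and 122, 83.7 and 167 CPM in females on HFD.

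Irf7 in male T cell-like cells had 55.9, 34.9 and 144 CPM on RD and 56.4, 49.6 and 85.3 CPM on HFD, from 43 UMIs in all. Female values of Irf7 were 0, 3.24 and 8.34 CPM on RD and 4.37, 16.7 and 0 CPM on HFD. All males thus had more Irf7 in T cell-like than in LC-like cells, while 2 females had 0. Bst2 had 112, 55.8 and 108 CPM in male RD and 132, 62.0 and 96.0 CPM in male HFD mice. In females Bst2 had 21.8, 22.7 and 33.4 CPM on RD and 72.2, 37.7 and 23.9 CPM on HFD. Without the keratin-led subclusters the medians in T cell-like cells of males and females were 60.4 and 66.9 CPM for Ifitm2, 165 and 48.2 CPM for Bst2 and 105 and 3.36 CPM for Irf7. Bst2 and, in males, Irf7 were thus higher and Ifitm2 lower with fewer keratin UMIs.

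Ifi27 in T cell-like cells had 76.9, 55.8 and 59.9 CPM in males on RD, 132, 99.3 and 117 CPM in males on HFD, 43.5, 61.6 and 50.1 CPM in females on RD and 59.0, 62.8 and 52.5 CPM in females on HFD. Irf1 had 62.9, 83.6 and 11.99 CPM in males on RD, 65.8, 49.6 and 10.7 CPM in males on HFD, 29.0, 61.6 and 72.3 CPM in females on RD and 48.1, 79.5 and 52.5 CPM in females on HFD. Ddx58 had 6.99, 20.9 and 11.99 CPM in males on RD, 9.39, 12.4 and 32.0 CPM in males on HFD, 29.0, 3.24 and 19.5 CPM in females on RD and 10.9, 25.1 and 19.1 CPM in females on HFD. Of these groups only those of Ifi27 in males lay apart, with all HFD mice above all RD mice, 1 of 4 members beside 9.44% of all genes. These values include the keratin-led subclusters and rest on 80582 to 143469 UMIs per male. Without those subclusters no member could be tested in male T cell-like cells, and in LC-like cells Ifi27 stood lower. Isg15 had medians of 20.9 CPM in male and 13.8 CPM in female T cell-like cells, below the LC-like median in males and above it in females.

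In keratinocytes, 1 member passed the threshold in females and none in males. Of the 23 tested in females 19 had a log2 fold change above 0, with a median of 0.20 against 0.01 over all genes. In males 21 of 26 were above 0, with a median of 0.17 against -0.01 over all genes. The median mitochondrial share of the barcodes was 3.087%, 3.146% and 3.396% in male RD and 3.619%, 3.675% and 3.484% in male HFD libraries. It thus lay apart by diet in males and overlapped in females, and its part in the member levels was not tested. With edgeR 0% of 15053 genes were called in males and 3.42% of 17720 in females. The members at an unadjusted p under 0.05 numbered 3 of 26 in males (9.09% of all genes) and 11 of 23 in females (21.7%), and DESeq2 called 0 and 1, the latter beside 5.46% of all genes.

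**Figure D4:**
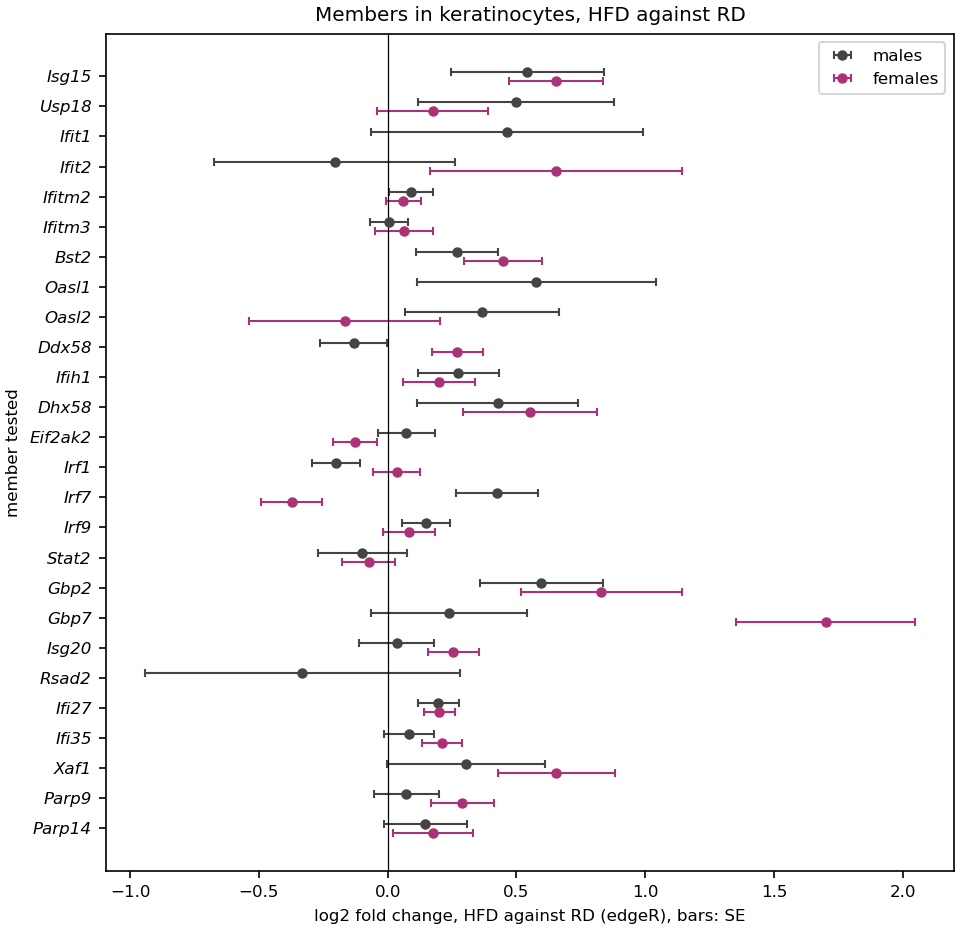
Log2 fold change of HFD against RD (horizontal axis) with its SE from the edgeR fits for each member tested in all keratinocytes, males in grey and females in purple. Gbp7 in females, at 1.70, lies farthest to the right, and Irf7 lies right of 0 in males and left of 0 in females.

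The member called was Gbp7 (chromosome 3, 142530342 to 142550149, plus strand, GRCm38), a guanylate-binding GTPase that interferons induce. Its level in females was 0.0426, 0.0468 and 0.0307 CPM on RD and 0.147, 0.157 and 0.108 CPM on HFD, from 70 UMIs in all. The RD levels lay below the filter on low counts, so Gbp7 was tested only through its HFD levels. The log2 fold change was 1.70 (SE 0.35, edgeR adjusted p = 0.0407). Male mice had 0.647, 0.319 and 0.607 CPM on RD and 0.466, 0.534 and 0.790 CPM on HFD, with overlap. The female call was lost when any 1 mouse was left out (edgeR adjusted p = 0.0564 to 0.174), and with the replicate block (edgeR adjusted p = 0.106), DESeq2 gave no adjusted p for it, and Gbp7 was below the filter on low counts once the highest doublet scores were removed.

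Ranges of HFD and RD females lay apart for 10 of 23 members that were higher under HFD (Gbp7, Gbp2, Ddx58, Isg15, Isg20, Bst2, Xaf1, Ifi35, Ifi27 and Parp9), beside 18.9% of all genes. Irf7 alone was lower, beside 8% of all genes. In males 2 of 26 were higher (Gbp2 and Dhx58), beside 4.22% of all genes, and 0 were lower, beside 12.1%. In female keratinocytes thinned to 2000 UMIs per cell the Langerhans cell marker Cd207 had a UMI in 0.162%, 0.132% and 0.183% of cells on RD and in 0.274%, 0.185% and 0.286% on HFD, every HFD mouse above every RD mouse. As CPM over all keratinocytes Cd207 overlapped between the diets, 1 of 10 markers (Mfge8) was higher in all HFD females and none was at 0, and their sum was 22.7, 19.4 and 25.4 CPM on RD and 41.4, 22.2 and 26.8 CPM on HFD. In males the sum was 26.8, 27.7 and 24.2 CPM on RD and 17.6, 23.5 and 21.5 CPM on HFD. The part of these transcripts in the member levels was not tested. Suprabasal or spinous cells made up 36.4%, 37.4% and 36.5% of all cells in female RD mice and 29.9%, 31.2% and 30.3% in female HFD mice. In males these shares overlapped between the diets. The part of this shift in levels over all keratinocytes was not tested either. Gbp2, a GTPase related to Gbp7 and named here after its values were seen, was the member apart in the same direction in both sexes over all keratinocytes. It had 0.266, 0.187 and 0.246 CPM in males on RD, 0.289, 0.351 and 0.380 CPM in males on HFD, 0.136, 0.117 and 0.0997 CPM in females on RD and 0.160, 0.314 and 0.191 CPM in females on HFD. Its log2 fold change was 0.60 (SE 0.24, edgeR adjusted p = 0.499) in males and 0.83 (SE 0.31, edgeR adjusted p = 0.173) in females, so that neither passed the threshold.

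Isg15 had 0.776, 0.843 and 0.844 CPM in female RD and 1.22, 1.74 and 1.11 CPM in female HFD keratinocytes. All HFD females stood above all RD females, with a log2 fold change of 0.65 (SE 0.18, edgeR adjusted p = 0.0862, DESeq2 adjusted p = 0.0278). Male mice had 2.28, 2.27 and 5.41 CPM on RD and 4.92, 3.93 and 4.90 CPM on HFD, where 1 RD mouse stood highest of all, and a log2 fold change of 0.54 (SE 0.30, edgeR adjusted p = 0.629). Ifi27 had 65.9, 65.8 and 59.5 CPM in female RD and 74.4, 82.0 and 73.0 CPM in female HFD mice, a log2 fold change of 0.20 (SE 0.06, edgeR adjusted p = 0.106). In males Ifi27 had 87.4, 101 and 103 CPM on RD and 113, 99.7 and 107 CPM on HFD, a log2 fold change of 0.20 (SE 0.08, edgeR adjusted p = 0.504). Neither gene passed the threshold of the main test in either sex.

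Irf7 had log2 fold changes of opposite sign in the sexes. In keratinocytes it had 10.4, 8.47 and 13.9 CPM in male RD and 12.9, 15.2 and 13.9 CPM in male HFD mice, a log2 fold change of 0.42 (SE 0.16, edgeR adjusted p = 0.482). Female mice had 2.17, 1.90 and 2.15 CPM on RD and 1.54, 1.85 and 1.62 CPM on HFD, a log2 fold change of -0.37 (SE 0.12, edgeR adjusted p = 0.119). The difference between the sexes was -0.78 (SE 0.21, edgeR adjusted p = 0.0726), which missed the threshold. The share of terminally differentiated cells, where Irf7 is highest, was 5.02%, 6.37% and 4.64% of all cells in male RD mice and 6.47%, 9.22% and 5.39% in male HFD mice. In females it was 2.92%, 2.45% and 3.88% on RD and 2.83%, 2.45% and 2.18% on HFD, and its part in the Irf7 levels was not tested. Within terminally differentiated cells the log2 fold change of Irf7 was 0.64 (SE 0.19, edgeR adjusted p = 0.0924) in males and -0.38 (SE 0.22, edgeR adjusted p = 0.595) in females.

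**Figure D5:**
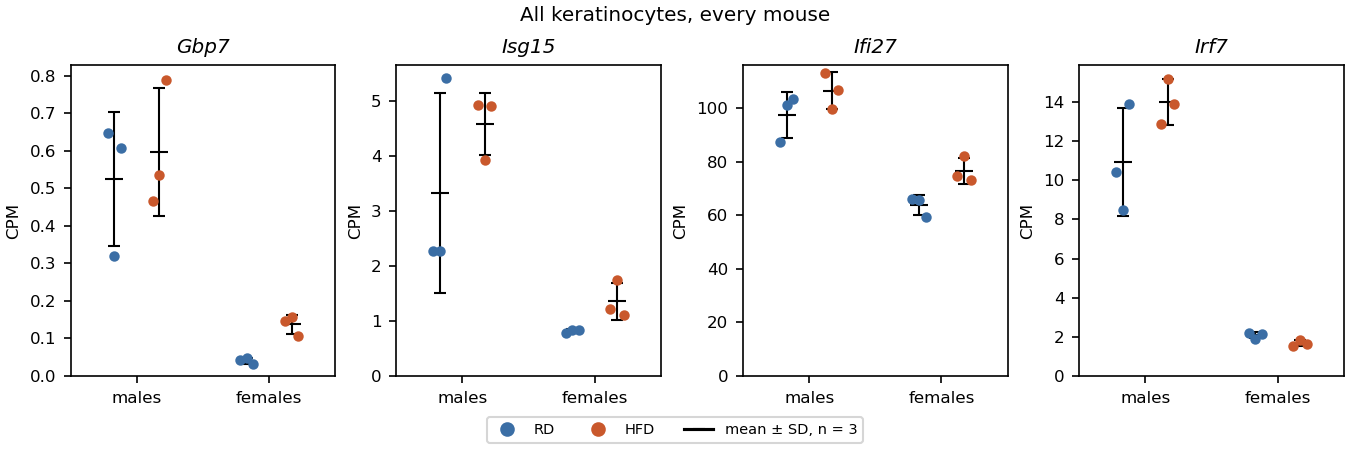
CPM of Gbp7, Isg15, Ifi27 and Irf7 in all keratinocytes, 1 point per mouse (RD blue, HFD orange), males and females side by side, with mean ± SD of 3 mice. Female HFD points lie above female RD points for Gbp7, Isg15 and Ifi27 and below them for Irf7.

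Of the other abundant members in keratinocytes, Ifitm3, Ifitm2 and Irf1 overlapped between the diets in both sexes. Ifitm3 had 209, 228 and 240.4 CPM in male RD and 212, 204 and 235 CPM in male HFD mice. In females it had 206, 247 and 191 CPM on RD and 226, 269 and 209 CPM on HFD. Ifitm2 had 199, 239 and 209 CPM in male RD and 222, 202 and 236 CPM in male HFD mice. In females it had 297, 295 and 269 CPM on RD and 309.9, 334 and 294 CPM on HFD. Within proliferating keratinocytes Ifitm2 had all male HFD mice above all male RD mice, at 293, 302 and 298 CPM on RD and 362, 303 and 338 CPM on HFD, as 6.55% of all genes did. Irf1 had 45.6, 55.3 and 57.9 CPM in male RD and 39.5, 44.6 and 47.9 CPM in male HFD mice. In females it had 44.2, 45.4 and 50.1 CPM on RD and 42.2, 57.1 and 50.6 CPM on HFD.

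Eif2ak2, the kinase PKR that halts translation on double-stranded RNA, had 6.29, 8.19 and 6.56 CPM in males on RD, 6.82, 6.49 and 7.85 CPM in males on HFD, 12.7, 12.1 and 12.2 CPM in females on RD and 10.3, 12.2 and 12.9 CPM in females on HFD. Irf9, the DNA-binding subunit of the STAT complex, had 6.65, 6.45 and 7.64 CPM in males on RD, 7.08, 6.88 and 8.08 CPM in males on HFD, 8.33, 7.10 and 7.66 CPM in females on RD and 7.50, 8.51 and 9.54 CPM in females on HFD. Irf9 overlaps Rnf31 on the same strand, so its counts are uncertain. Ifi35 had 7.22, 7.37 and 9.08 CPM in males on RD, 8.13, 8.01 and 7.79 CPM in males on HFD, 6.58, 6.26 and 6.26 CPM in females on RD and 7.96, 7.80 and 7.28 CPM in females on HFD. Of these 3 only Ifi35 in females had diets whose mice did not overlap.

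Within the stages no member passed the edgeR threshold. Of all genes, 0% were called in each stage in males, and in females 0.823% in basal, 1.8% in proliferating, 0.175% in migratory, 1.16% in suprabasal or spinous and 0% in terminally differentiated cells. At an unadjusted p under 0.05 there were in males 2 of 20 members in basal (6.93% of all genes), 2 of 21 in proliferating (9.8%), 4 of 16 in migratory (5.78%), 2 of 16 in suprabasal or spinous (9.38%) and 5 of 11 in terminally differentiated cells (26.9%). In females there were 3 of 20 in basal (15.8%), 2 of 19 in proliferating (19.7%), 2 of 15 in migratory (14.9%), 4 of 18 in suprabasal or spinous (18.7%) and 0 of 7 in terminally differentiated cells (8.99%). DESeq2 called 1 member in male terminally differentiated cells (1.82% of all genes) and 1 in female suprabasal or spinous cells (2.26%), and 0 in the other stages. Ifi27 in suprabasal or spinous cells, a class that gathers different clusters in the 2 sexes, was higher in all HFD than in all RD mice in both sexes. In males the margin is lost in rounding. In that class 1 of 16 members was higher in males (Ifi27; 4.51% of all genes) and 1 lower (Irf1; 11.9%), and in females 7 of 18 were higher (Ddx58, Isg15, Isg20, Bst2, Dhx58, Ifi35 and Ifi27; 15.3%) and 0 lower (7.69%). Ifi27 had 77.1, 80.4 and 83.3 CPM in male RD and 94.7, 83.3 and 88.8 CPM in male HFD mice. In females it had 67.4, 66.2 and 60.8 CPM on RD and 74.4, 87.0 and 74.2 CPM on HFD. In male terminally differentiated cells Ifi27 lay the other way, with 26.5, 34.5 and 22.0 CPM on RD and 16.1, 18.5 and 21.4 CPM on HFD, and 2 of 11 members were lower there (Ifi27 and Irf1; 19.3% of all genes).

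The interaction of diet and sex gave 0 members past the edgeR threshold in LC-like cells (19 tested, 0% of genes called), 0 in T cell-like cells (5 tested, 0% of genes called) and 0 in keratinocytes (26 tested, 1.55% of genes called). At an unadjusted p under 0.05 there were 0, 0 and 4 members (5.38%, 5.94% and 16.6% of all genes), and DESeq2 called 0, 0 and 1, the last beside 3.68% of all genes.

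Other genes of the pathway, 90 in 5 lists of ligands, receptors and kinases, regulators, sensing adaptors and further responsive genes, gave 1 call in the diet comparisons, in female keratinocytes, where 55 of them were tested and 3.42% of all genes were called. Nmi, an interferon-induced partner of STAT proteins, rose in female keratinocytes by a log2 fold change of 0.57 (SE 0.11, edgeR adjusted p = 0.0393) from 2.56, 2.28 and 2.32 CPM on RD to 4.02, 3.60 and 3.43 CPM on HFD. In males Nmi had 1.88, 1.53 and 1.86 CPM on RD and 1.77, 1.35 and 1.64 CPM on HFD. Its female call was lost with all but 1 of the 6 mice left out in turn.

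Interferon transcripts were at or near 0. Ifnb1, encoding interferon beta, was the highest ligand in male LC-like cells with 7 UMIs over 6 mice, and Ifnk the highest in female ones with 2 UMIs. Ifng, encoding interferon gamma, led in T cell-like cells with 6 UMIs in males and 13 in females. In keratinocytes Ifnl2 led in males with 37 UMIs and Ifnk in females with 19 UMIs. Of 9 receptors and kinases, 8 had enough UMIs to be tested in LC-like cells of each sex, 2 in male and 6 in female T cell-like cells and 9 in keratinocytes of each sex. Jak1 had medians of 109.9 CPM in male LC-like cells, 225 and 337 CPM in male and female T cell-like cells and 116 and 198 CPM in keratinocytes, each the highest of the receptors and kinases there, and Ifnar2 led in female LC-like cells with 185 CPM.

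Among regulators Irf8, a factor of myeloid cells, led in male LC-like cells with a median of 121 CPM and Pias1 in female ones with 145 CPM. Socs1, a feedback inhibitor of JAK kinases, led in T cell-like cells with 75.9 and 142 CPM, and Socs3 and Ptpn2 in male and female keratinocytes with 116 and 76.2 CPM. Of the sensing genes, Samhd1 led in males with 32.6 CPM in LC-like and 21.2 CPM in T cell-like cells and Tbk1 in females with 73.7 and 46.2 CPM. Myd88 led in male keratinocytes with 24.8 CPM and Tbk1 in female ones with 24.9 CPM. B2m, the light chain of class I molecules, led the further responsive genes in LC-like cells with 556 and 491 CPM and in T cell-like cells with 562 and 476 CPM, and Ly6a in keratinocytes with 130.2 and 131 CPM.

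Few cells had UMIs of several inducible members together. Each cell was thinned to 2000 UMIs and counted when at least 3 of 13 inducible members had a UMI. In LC-like cells 5 males had 0 such cells, and male RD replicate 3 had 3 of 140 (2.14%). All 6 females had 0 of 2094 LC-like cells, which allows a share of up to 0.143% of cells with such UMIs at this depth, pooled over 6 mice. It sets no limit on cells that express these genes: thinned to 4000 UMIs, 1 female had 1 of 294 cells (0.34%), and of the males RD replicate 3 had 5 of 123 (4.07%), HFD replicate 3 had 3 of 142 (2.11%), RD replicate 1 had 1 of 175 (0.571%) and the other 3 had 0. The T cell-like cells had 0 of 70 in males and 0 of 277 in females, which allows shares of up to 4.29% and 1.08%, counting error only. Cells with fewer UMIs were left out, 63 male and 53 female LC-like cells and 153 and 62 T cell-like cells. In keratinocytes it reached at most 0.0105% in a male and 0.011% in a female. Unthinned shares ran to 3.401% in male and 0.312% in female LC-like cells, at median depths of 2826 to 7776 UMIs per cell in a mouse, against 6702 to 15288 in keratinocytes. As a measure of Langerhans cell transcripts in the keratinocyte class, Cd207, which keratinocytes lack, had a UMI in 0.063% to 0.286% of thinned keratinocytes. The source of these UMIs was not tested. This is 1 gene, where the inducible shares need 3, so the shares cannot be set against each other. An exact two-sided permutation test of HFD against RD in male LC-like cells gave p = 1.0, the value any design with 1 mouse above 0 gives, and in females, all at 0, no test was possible.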

How the data were processed

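Single-cell suspensions of peeled glabrous hind paw epidermis were loaded on the 10x Genomics platform (3' chemistry), 1 library per mouse. The deposited matrices hold UMI counts per gene and barcode, made by the authors with Cell Ranger against mm10 (GRCm38); the file headers give version 6.1.0 for males and 7.2.0 for females, and the submitters' processing notes list Cell Ranger 7.2.0 and Seurat 5.0.0. The later Cell Ranger counts intronic reads by default, and whether the authors kept that setting is not given in the sources used here.

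Kept were barcodes with 200 (males) or 500 (females) to 6000 genes and a mitochondrial share no higher than 5%. Counts were scaled to 10000 per cell and log-transformed, and each sex was clustered on 2000 variable genes (members left out), 10 components and 20 neighbours with Leiden (leidenalg 0.10.2) at the lowest resolution that gave at least 10 clusters. Clusters were named from marker lists, so the names are rebuilt and can differ from the study's, and 13777 male and 4865 female cells stayed unnamed. Doublets were scored but kept, and leaving out the highest scores was an alternative. UMIs were summed per mouse and class and tested with edgeR 4.0.16 (quasi-likelihood, TMM, filterByExpr, Benjamini-Hochberg over all genes, R 4.3.3), each sex apart, after tests on simulated data. Depth was 904257 to 3897920 UMIs per mouse in LC-like and 80582 to 457353 in T cell-like cells, and intervals of counts cover counting error only. Ranges of the diets, and of LC-like cells against every other class, were compared for genes with at least 50 UMIs. For a pair of classes, the mean level over both had to give at least 50 UMIs in the class with fewer UMIs. No column of another sample was present.

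Members, lists and tests were chosen with earlier results of these data known. Values for every mouse were given for members past the threshold in a diet comparison or interaction and for the 6 with the highest mean CPM in LC-like, T cell-like and all keratinocyte cells, and a gene of the pathway lists was named where it passed the threshold or was the highest of its list. Bst2, Isg15, Ifi27, Irf7 and Ifitm2 were followed further after their values were seen. The alternatives were no filter on low counts, RLE in place of TMM size factors, DESeq2 1.42.0, a replicate block, and other cell filters and clusterings. They also included each mouse left out, a Wilcoxon test over single cells, and leaving out keratin-led subclusters, which was added after seeing the data.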

Additional observations from a re-analysis of the deposited data

Results flagged for a closer look

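B2m, the light chain of class I molecules and a gene of the fixed pathway lists, differed between the sexes in its response to HFD in migratory keratinocytes by the test of the difference itself, the 1 call among 44 pathway genes tested there, where 20 of 12382 genes were called. It had 128, 94.7 and 112 CPM in male RD and 193, 165 and 184 CPM in male HFD mice, and 158, 144 and 187 CPM in female RD and 127, 133 and 136 CPM in female HFD mice. All HFD males stood above all RD males, and all HFD females below all RD females. The log2 fold change was 0.73 in males (edgeR adjusted p = 0.202) and -0.33 in females (edgeR adjusted p = 0.164), and their difference, female minus male, was -1.04 (SE 0.17, edgeR adjusted p = 0.0289). Of 21 alternatives 13 were past the threshold, with adjusted p-values of 8.02e-08 to 0.102. In the main fits the interaction was tested in every cell class, and B2m here was the only call among members and pathway genes. The part of counting software, which differs between the sexes, cannot be told apart from that of sex. No group of 3 mice was tested for a single outlying sample.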

How the results depend on the processing

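The count of members called was recomputed in 19 comparisons under 303 alternatives, of which 276 gave 0, and 9 comparisons were at 0 in all of theirs. Without a filter on low counts 1 member was called in male basal (0.802% of all genes called), male proliferating (1.36%), female proliferating (3.47%) and female suprabasal or spinous cells (1.95%) and in the keratinocyte interaction (1.48%), 2 in female LC-like cells (1.27%) and 3 in male terminally differentiated cells (7.06%). DESeq2 called 1 in male terminally differentiated cells (1.82%), in female suprabasal or spinous cells (2.26%) and in the keratinocyte interaction (3.68%). The Wilcoxon test over single cells called 1 in LC-like cells of each sex (1.35% and 1.96%). With the highest doublet scores removed the count was 1 in female LC-like (1.03%) and female suprabasal or spinous cells (3.15%) and 0 in female keratinocytes. Leaving out keratin-led subclusters gave 1 in female LC-like cells (1.07%). Keeping the members among the variable genes, or allowing 10% mitochondrial UMIs, gave 1 each in female suprabasal or spinous cells (3.41% and 2.73%).

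With single mice left out the counts were 0 to 2 in male terminally differentiated cells (2 without RD replicate 3, 8.88% of all genes), 0 to 2 in female suprabasal or spinous cells (2 without HFD replicate 2, 6.92%), 0 to 1 in female terminally differentiated cells (1 without RD replicate 2, 0.499%), 0 to 2 in the keratinocyte interaction (2 without male RD replicate 2, 2.85%) and 0 in female keratinocytes. The difference in the share of LC-like cells with at least 3 inducible members ran from -1.07 to 0 percentage points in males, the 0 without RD replicate 3, and in females it was -0.212 at 2 members and -0.113 at 4000 UMIs. The log2 fold change of Bst2 in male LC-like cells ran from -0.55 to 0.05 with single mice left out, its sign turning without male RD replicate 3 (0.054). The cause was not tested in any of these.

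Mice share only a number. Deviations of same-numbered mice from their group means correlated between -0.233 and 0.183. Mice of different numbers were not correlated for comparison, so these values do not settle whether the numbers pair mice. With the replicate block 0 members were called in female keratinocytes, where Gbp7 had a log2 fold change of 1.69 (edgeR adjusted p = 0.106), and Ifitm2 without keratin-led subclusters had adjusted p-values of 0.0283 in males and 0.0109 in females. Irf7 passed the threshold in male terminally differentiated cells without the filter (edgeR adjusted p = 0.00633), with DESeq2 (0.0482) and without male RD replicate 3 (0.0346). Its interaction in keratinocytes passed without the filter (0.0427), with DESeq2 (0.0104) and without male RD replicate 2 (0.0492). Depth limits the T cell-like comparisons, where 3 and 4 members could be tested.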
